A study of Mus musculus with 32 samples.

Results

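The genes described here are 10 Wnt ligands of the early mouse brain, Wnt1, Wnt3, Wnt3a, Wnt4, Wnt5a, Wnt5b, Wnt7a, Wnt7b, Wnt8b and Wnt2b. They were taken by name, through their Ensembl identifiers, and are 10 of 48576 identifiers in the FPKM tables and 10 of 19 Wnt genes listed there. FPKM are fragments per kilobase of transcript scaled to the mapped fragments of the library, so that levels of genes of different length can be set side by side. RNA came from the forebrain (Fb) and midbrain (Mb) of B6C3F1 mouse embryos at E9.5 and gave 32 libraries, 16 per tissue. Each tissue had 6 WT, 4 TKO_Ex, 3 DKO_Ex and 3 DKO_CD libraries, in which small CRISPR/Cas9 deletions disrupt genes of type II cadherins, cell adhesion molecules of the neural tube. TKO_Ex carried mutations of Cdh6, Cdh8 and Cdh11 and were exencephalic, that is, the cranial neural tube had failed to close. DKO_Ex were exencephalic double mutants and DKO_CD were double mutants with an elongated midbrain. The mutants were bred from triple heterozygotes and WT embryos from separate WT matings, so WT were not littermates of the mutants. The labels name Cdh8 and Cdh11 for DKO_Ex but Cdh6 and Cdh8 for DKO_CD, whereas the methods treat both as Cdh8/11 mutants. Cdh6 in DKO_CD was at 1.76, 2.11 and 1.29 FPKM in the Mb and at 3.43, 1.72 and 2.78 in the Fb, against 1.04 to 3.55 and 2.04 to 4.0 in WT. Cdh11 in the DKO_CD Mb was at 16.65 to 27.2 FPKM, against 17.9 to 28.7 in WT and 17.6 to 18.7 in DKO_Ex. In the Fb it was at 12.7 to 25.3, against 19.5 to 25.3 and 17.1 to 18.7. In the TKO_Ex Mb, Cdh6, Cdh8 and Cdh11 differed from WT by -0.90, -1.12 and -0.42 on the log2 scale. In the TKO_Ex Fb these differences were -0.69, 0.04 and -0.11. None of the 3 genes had an adjusted p under 0.05 in any mutant group against WT (limma). These FPKM cover the whole gene, so they do not show whether the small deleted stretch was read. The paper reports loss of each protein in western blots of single mutants, and no TKO reads over the deleted stretches. Which genes DKO_CD lacked was not tested. In all 12 DKO libraries the column heading and the sample record name opposite DKO groups. Grouping by record therefore only exchanges the names DKO_Ex and DKO_CD. The headings were followed, and the grouping by record is given where it changed a call.

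Wnt proteins are secreted, lipid-modified ligands that signal over short distances through Frizzled receptors and their co-receptors. In the canonical branch this stabilizes β-catenin, which acts with TCF/LEF factors on target genes, and in the non-canonical branches it acts on cell polarity and movement. In the neural tube, ligands such as Wnt1 and Wnt3a are made along the dorsal midline, Wnt1 also marks the boundary of midbrain and hindbrain, and Wnt7b and Wnt8b are known from the forebrain.

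On GRCm38, all 10 are protein-coding genes. The pair most unlike each other in these tissues was Wnt1 (ENSMUSG00000022997, chr15:98789857-98793837, plus strand), a canonical ligand needed for midbrain development, and Wnt8b (ENSMUSG00000036961, chr19:44493472-44514273, plus strand), a ligand of the medial forebrain. The 250 bases upstream of their RefSeq start sites (GRCm38.p6, plus strand, 5′ to 3′) are shown because the pair had opposite tissue differences. Capitals mark the motifs searched for on both strands, the TCF/LEF cores CTTTGA and CTTTGT, the Otx type TAATCC and the homeodomain core TAATTA.
Wnt1, chr15:98789607-98789856: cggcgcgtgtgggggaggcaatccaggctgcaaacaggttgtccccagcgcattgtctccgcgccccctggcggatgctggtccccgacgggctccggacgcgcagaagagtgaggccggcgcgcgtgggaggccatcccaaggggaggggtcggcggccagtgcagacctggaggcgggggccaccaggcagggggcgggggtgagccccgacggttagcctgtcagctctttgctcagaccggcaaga
Wnt8b, chr19:44493222-44493471: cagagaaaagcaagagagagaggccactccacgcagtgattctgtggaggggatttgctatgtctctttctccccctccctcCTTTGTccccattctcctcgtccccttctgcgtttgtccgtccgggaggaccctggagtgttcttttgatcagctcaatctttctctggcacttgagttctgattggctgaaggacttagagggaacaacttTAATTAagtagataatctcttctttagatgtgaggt
The upstream stretch of Wnt8b held CTTTGT at 168 to 163 bases and TAATTA at 36 to 31 bases before the start, motifs found in 16.5% and 4.9% of 27025 mouse promoters of this length. The stretch of Wnt1 held none of the motifs. Its GC content was 71.6%, above that of 93.1% of the promoters, and that of Wnt8b was 48.4%, close to the median of 52.0%. RefSeq promoter entries matched 8 of the 10 ligands. CTTTGA (14% of promoters) occurred in 1 of 3 entries of Wnt5b, and the other 5 ligands with an entry held no motif in these windows. A motif match is a match of letters only.

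The other ligands lie at chr11:103774150-103817957 (Wnt3, ENSMUSG00000000125, plus strand), chr11:59248033-59290752 (Wnt3a, ENSMUSG00000009900, minus), chr4:137277489-137299726 (Wnt4, ENSMUSG00000036856, plus), chr14:28504750-28527448 (Wnt5a, ENSMUSG00000021994, plus) and chr6:119432531-119544347 (Wnt5b, ENSMUSG00000030170, minus). Wnt7a (ENSMUSG00000030093) is at chr6:91363981-91411363, minus, Wnt7b (ENSMUSG00000022382) at chr15:85535437-85582473, minus, and Wnt2b (ENSMUSG00000027840) at chr3:104945272-104961921, minus. Wnt2b overlaps the gene model Gm43846 on the same strand, so its FPKM are uncertain. Wnt5a, Wnt5b and Wnt7b overlap genes on the opposite strand, which the directional libraries separate.

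The libraries held an estimated 1.96 to 3.25 M fragments, so that 1 FPKM of Wnt1 rests on about 6.27 fragments and low values are coarse. The tissue labels were checked against 10 forebrain and 8 midbrain genes, whose summed FPKM were 192 to 372 and 14.8 to 25.8 in Fb, and 6.8 to 65.8 and 69.7 to 214 in Mb. Library 5 of the WT Mb stood apart, with 3.57 FPKM of En1 and 8.35 of En2, homeobox genes of the midbrain and isthmus, against 32.0 to 59.0 and 36.6 to 74.7 in the other 5, and with 52.7 of Pax6, which is high in the forebrain. Library 4 of the TKO_Ex Fb and library 2 of the DKO_CD Fb had the most Epcam, an epithelial gene, among the libraries of their groups (43.1 and 46.5 FPKM). Their sums of the forebrain genes, 206 and 192 FPKM, were the lowest among the Fb libraries. Library 3 of TKO_Ex had 3.10 (Mb) and 3.74 (Fb) FPKM of Cdh6, a level seen in WT, against 0.345 to 1.84 in the other TKO_Ex libraries. Calls between tissues were recomputed without these libraries, as were the mutant values described below. Fewer cells of a type and less RNA per cell cannot be told apart in bulk tissue. Nothing in the labels ties each library to a separate embryo, so p-values measure the spread between libraries.

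The 10 ligands together reached nearly the same level in both WT tissues but were made up of different members. Their summed FPKM ranged from 56.7 to 86.4 in the Fb (71.3 ± 9.73, SD, n = 6) and from 58.2 to 75.9 in the Mb (66.1 ± 6.36, SD, n = 6), and these ranges overlapped. Wnt7b and Wnt8b contributed 34.0% and 22.8% of the mean Fb sum, and Wnt1 and Wnt5a contributed 27.1% and 24.5% of the mean Mb sum. By mean level in FPKM the order in the WT Fb was Wnt7b, Wnt8b, Wnt5b, Wnt5a, Wnt7a, Wnt2b, Wnt4, Wnt1, Wnt3a and Wnt3. Of the 9 neighbouring pairs 8 overlapped in their libraries' ranges, and the gap lay between Wnt5a and Wnt7a. In the WT Mb the order was Wnt1, Wnt5a, Wnt5b, Wnt3a, Wnt7a, Wnt2b, Wnt4, Wnt7b, Wnt3 and Wnt8b, with 8 of 9 neighbours overlapping and the gap between Wnt5a and Wnt5b. The 4 ligands that led the WT Fb also held the first 4 places in the Fb of each mutant group, and Wnt1 and Wnt5a held the first 2 places in the Mb of each mutant group.

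**Figure D1:**
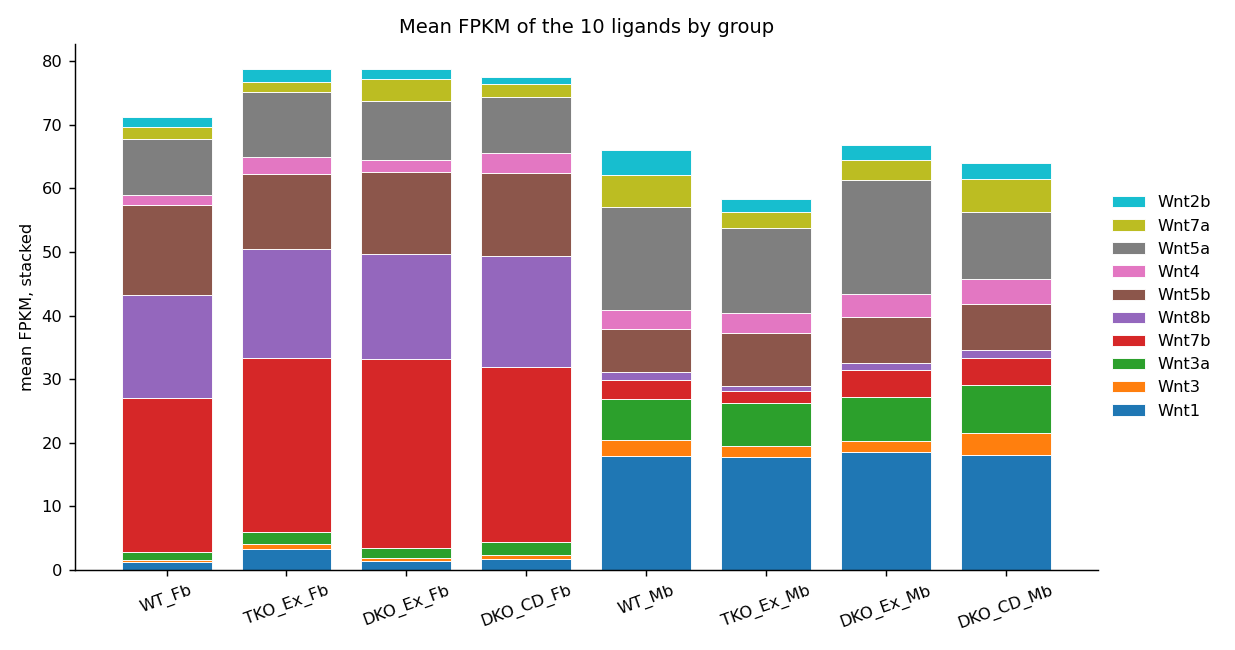
Mean FPKM of the 10 ligands stacked for the Fb and Mb of each of the 4 groups (n = 6, 4, 3 and 3 libraries), with the summed level in FPKM on the vertical axis. Wnt7b and Wnt8b make up the largest blocks of the Fb bars, and Wnt1 and Wnt5a those of the Mb bars.

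Wnt1, Wnt3a and Wnt3, canonical ligands of the dorsal neural tube, were higher in the WT Mb. Wnt1 had 0.203 to 2.30 FPKM in the Fb (median 1.14) and 13.7 to 25.1 in the Mb (median 17.6). Every Mb library lay above every Fb library. The means, 1.29 ± 0.788 and 17.9 ± 4.20 FPKM (SD, n = 6 each), differed 13.9-fold, and the difference on the log2(FPKM + 1) scale was 3.09 ± 0.23 (SE, limma, adjusted p = 1.57e-06). On this scale the 1 added to each value makes fold changes of low genes smaller than they are in FPKM.

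Wnt3a, a dorsal midline ligand, had 0.342 to 1.92 FPKM in the Fb (median 1.36) and 3.5 to 9.96 in the Mb (median 6.63), again without overlap. Its Mb mean was 5.26 times its Fb mean, and the difference was 1.72 ± 0.25 on the log2(FPKM + 1) scale (SE, limma, adjusted p = 0.000477). Wnt3 was the lowest of the ligands in the Fb, from 0 in library 5 to 0.615 FPKM (median 0.244), and had 1.5 to 4.68 in the Mb (median 2.26). The ranges did not overlap, but the Fb values rest on at most a few fragments. The log2 difference of Wnt3 was 1.41 ± 0.22 (SE, limma, adjusted p = 0.000918). It entered the test through its Mb level, and its highest Mb value was in library 5. Without that library the difference was 1.25.

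Wnt7b, Wnt8b and Wnt5b had the opposite pattern. Wnt7b, which can signal through β-catenin, was the ligand with the highest mean in the WT Fb, with 18.5 to 30.1 FPKM (median 23.6) against 1.47 to 7.05 in the Mb (median 2.28). Its 7.96-fold higher mean in the Fb corresponded to a log2 difference, Mb minus Fb, of -2.75 ± 0.25 (SE, limma, adjusted p = 8.96e-06). Wnt8b had 13.9 to 19.4 FPKM in the Fb (median 16.4), and in the Mb 5 of 6 libraries were below 1 FPKM. The remaining Mb library, number 5, had 4.57, and still lay below every Fb library. The log2 difference of Wnt8b was -3.24 ± 0.31 (SE, limma, adjusted p = 1.55e-05). Without Mb library 5 it was -3.57, and that of Wnt7b -2.97.

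Wnt5b, a ligand of the non-canonical group, differed less. It had 9.78 to 17.6 FPKM in the Fb (median 14.5) and 5.15 to 9.33 in the Mb (median 6.57), without overlap. The Fb mean was 2.09 times the Mb mean and the log2 difference was -0.96 ± 0.17 (SE, limma, adjusted p = 0.00196). Its relative Wnt5a, a non-canonical ligand that acts on cell polarity, went the other way. Wnt5a had 7.16 to 12.2 FPKM in the Fb (median 8.21) and 10.3 to 21 in the Mb (median 16.7), and the lowest Mb library overlapped the highest Fb library. The log2 difference of Wnt5a was 0.80 ± 0.17 (SE, limma, adjusted p = 0.00778).

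The remaining ligands were low in both WT tissues. Wnt4, a ligand used in several epithelia, had 1.08 to 1.91 FPKM in the Fb (median 1.62) and 2.31 to 4.08 in the Mb (median 2.81), without overlap. Its log2 difference was 0.64 ± 0.15 (SE, limma, adjusted p = 0.0180). The means of Wnt7a, a paralog of Wnt7b, were 1.88 ± 1.01 in the Fb and 5.01 ± 4.09 in the Mb (SD, n = 6 each), with an overlap, a log2 difference of 0.93 ± 0.36 (SE) and an adjusted p of 0.155 (limma). Wnt2b, a ligand of the dorsal midline and of the eye, had 1.70 ± 0.721 in the Fb and 3.99 ± 2.21 in the Mb (SD, n = 6 each), with an overlap, a log2 difference of 0.83 ± 0.26 (SE) and an adjusted p of 0.0663 (limma). Wnt2b passed the threshold without Fb library 1 (adjusted p = 0.0497), without Mb library 1 (0.0381) and with all 8 groups in one fit (0.0259). Without Mb library 5, its highest, the log2 difference was 0.63 (adjusted p = 0.104).

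Thus 5 of the 10 ligands passed the test as higher in the WT Mb and 3 as higher in the WT Fb, against 4.66% and 3.6% of the 13344 genes tested. The calls were 5 and 3 also without Mb library 5. The ranges did not overlap for 4 ligands higher in the Mb and 3 higher in the Fb, against 3.36% and 2.23% of genes. When each of the 12 WT libraries was left out in turn, the 8 ligands past the threshold stayed past it, with an adjusted p of at most 0.0429 (Wnt4, without Mb library 5). With the libraries paired by number, the call of Wnt4 was lost. With a pseudocount of 0.1 in place of 1, the log2 difference of Wnt3 was 2.94, over 1.5 times as large.

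**Figure D2:**
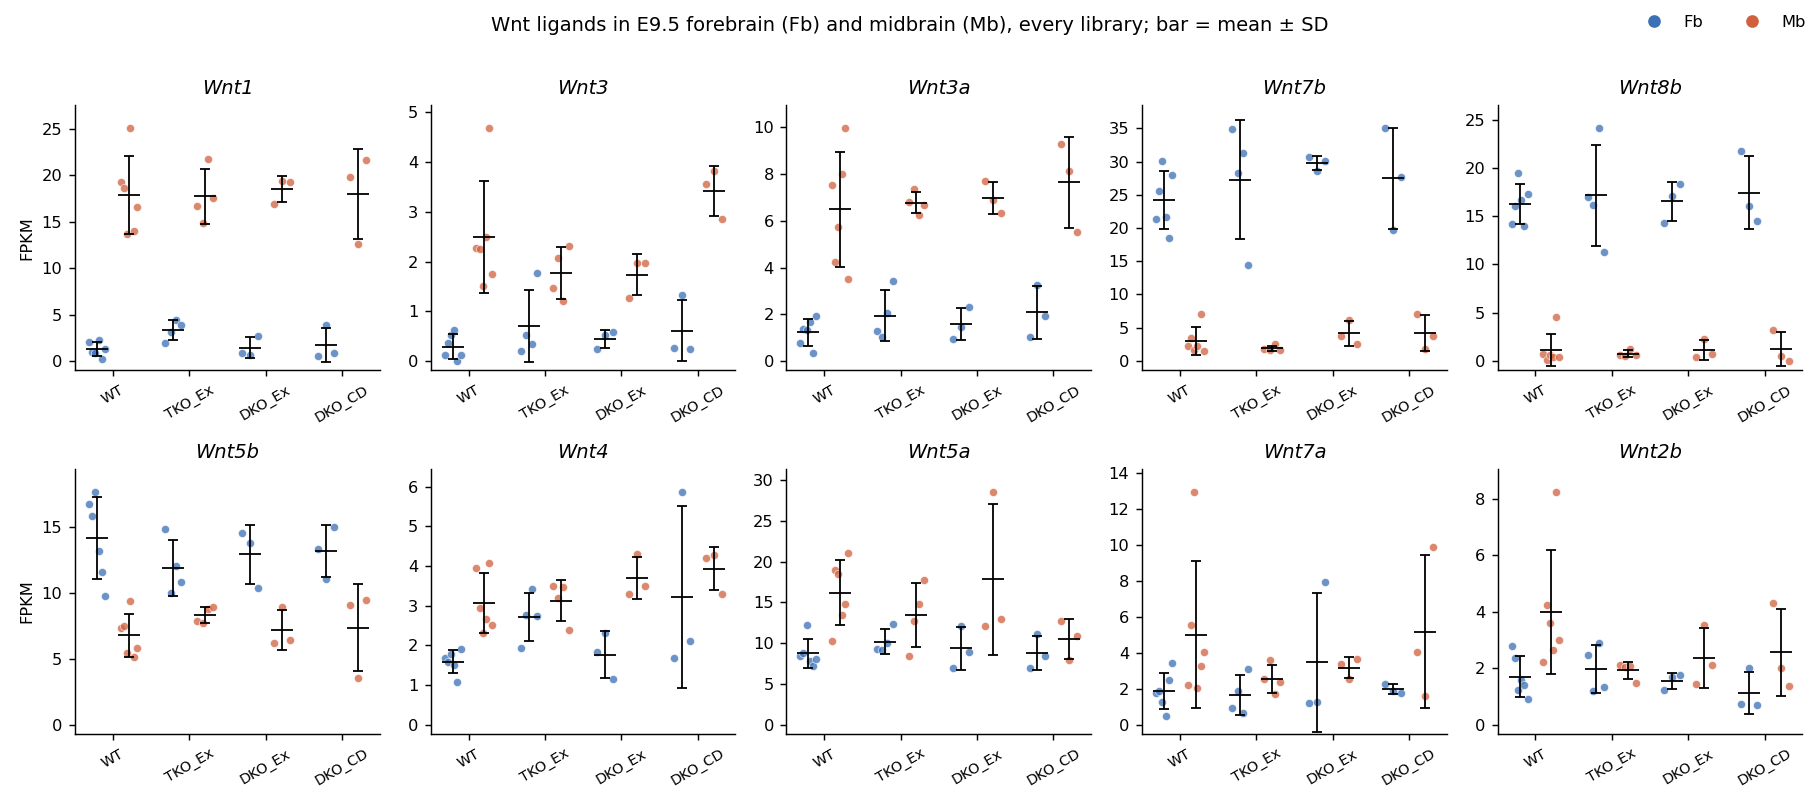
FPKM of each of the 10 ligands in every library (linear axis from 0), for Fb and Mb of WT (n = 6), TKO_Ex (n = 4), DKO_Ex (n = 3) and DKO_CD (n = 3), with black bars for the mean ± SD of each group. In every group Wnt1 and Wnt3a lie higher in the Mb and Wnt7b and Wnt8b higher in the Fb, without overlap.

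The regional difference of Wnt1, Wnt3a, Wnt7b and Wnt8b was next examined in the mutants, each group in its own fit. In TKO_Ex, Wnt1 had 1.92, 3.09, 4.42 and 3.85 FPKM in the Fb and 16.7, 14.9, 21.8 and 17.6 in the Mb. The tissues were separate, with a log2 difference of 2.14 ± 0.21 (SE, limma, adjusted p = 0.000841). Wnt7b had 34.9, 28.3, 31.4 and 14.5 FPKM in the TKO_Ex Fb and 1.75, 1.72, 2.51 and 1.70 in the Mb, a log2 difference of -3.22 ± 0.26 (SE, limma, adjusted p = 0.000232). Its lowest Fb value belonged to library 4, which had the most Epcam of its group. Wnt8b had 17.0, 16.2, 24.1 and 11.3 FPKM in the Fb and at most 1.25 in the Mb, a log2 difference of -3.34 ± 0.24 (SE, limma, adjusted p = 0.000111). With a mean of 0.758 FPKM in the Mb, Wnt8b entered this test through its Fb level. Wnt3a had 1.28, 1.02, 2.05 and 3.44 FPKM in the Fb against 6.8, 7.37, 6.26 and 6.70 in the Mb, which did not overlap, with a log2 difference of 1.47 ± 0.25 (SE, limma, adjusted p = 0.0146). These were 2 ligands higher in the Mb and 2 higher in the Fb, against 1.54% and 1.35% of genes. The call of Wnt3a was lost without Mb library 2 (adjusted p = 0.0524) and without library 3 of both tissues, where Cdh6 was at the WT level (adjusted p = 0.0980), whereas the other 3 calls held without library 3, and all 4 held without Fb library 4. With the libraries paired by number, the call of Wnt3a was lost as well.

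In DKO_Ex the same 4 ligands passed the test, 2 in each direction, against 1.66% of genes higher in the Mb and 0.924% higher in the Fb. Wnt1 had 0.813, 0.695 and 2.73 FPKM in the Fb and 16.9, 19.4 and 19.3 in the Mb, with a log2 difference of 3.11 ± 0.31 (SE, limma, adjusted p = 0.00365). Wnt7b had 30.7, 28.6 and 30.02 FPKM in the Fb and 3.77, 6.2 and 2.53 in the Mb, a log2 difference of -2.64 ± 0.25 (SE, limma, adjusted p = 0.00299). Neither pair of ranges overlapped. Wnt8b had 14.3, 17.0 and 18.3 FPKM in the Fb and 0.379, 2.27 and 0.752 in the Mb (log2 difference -3.13 ± 0.33, SE, limma, adjusted p = 0.00399). Wnt3a had 0.962, 1.47 and 2.30 FPKM in the Fb and 7.69, 6.91 and 6.34 in the Mb (log2 difference 1.66 ± 0.24, SE, limma, adjusted p = 0.0158). The call of Wnt3a was lost without Fb library 2 (adjusted p = 0.0590) or without Mb library 1 (0.0816), 2 (0.0763) or 3 (0.0605). It was also lost with the libraries paired by number. With DKO groups taken from the records, the group names are exchanged, so these 4 calls fall to DKO_CD and none to DKO_Ex.

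In DKO_CD no ligand passed the threshold (limma), where 0.224% and 0.283% of genes passed as higher in the Mb and in the Fb. At an unadjusted p under 0.05 there were 6 of the 10 ligands and 10.1% of all genes. Wnt1 had 0.524, 3.87 and 0.820 FPKM in the Fb and 19.9, 12.6 and 21.7 in the Mb, and Wnt8b had 21.7, 16.04 and 14.5 in the Fb and 3.22, 0.493 and 0 in the Mb. Both were separate between the tissues. Their log2 differences were 2.97 ± 0.46 and -3.30 ± 0.51 (SE, limma, adjusted p = 0.0580 and 0.0584). Wnt7b had 35.0, 19.7 and 27.6 FPKM in the Fb and 7.06, 1.85 and 3.69 in the Mb, again without overlap, with a log2 difference of -2.54 ± 0.39 (SE, limma, adjusted p = 0.0580). These calls turned on single libraries. Wnt1 passed without Fb library 2 (log2 difference 3.48, adjusted p = 0.00905), which had the highest Wnt1, Wnt3, Wnt3a and Wnt4 of its group, and Wnt7b and Wnt8b passed without Mb library 1 (-2.92 and -3.90, adjusted p = 0.0369 and 0.00987). With all 8 groups in one fit, Wnt1, Wnt3, Wnt3a, Wnt7b and Wnt8b passed in DKO_CD (highest adjusted p 0.00540, Wnt3a). With the libraries paired by number, only Wnt7b passed.

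**Figure D3:**
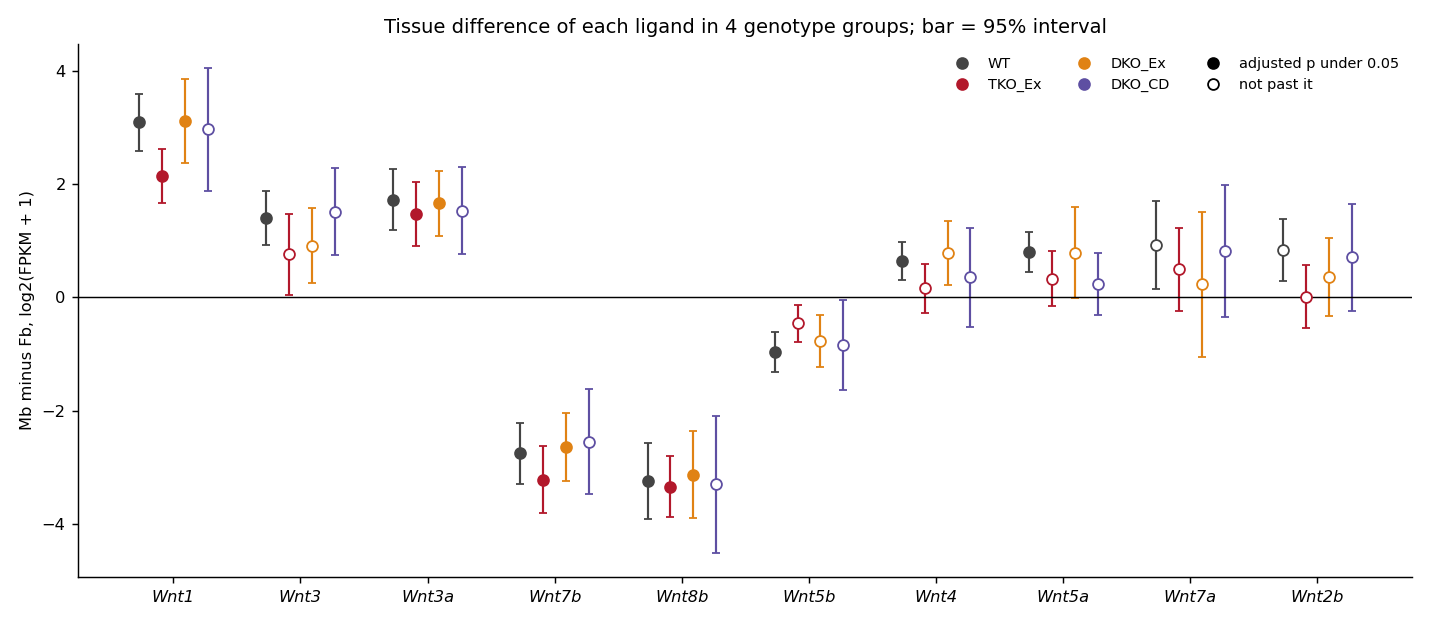
Mb minus Fb difference on the log2(FPKM + 1) scale with its 95% confidence interval (limma) for each ligand in WT, TKO_Ex, DKO_Ex and DKO_CD, filled where the adjusted p is under 0.05. Wnt1 and Wnt3a lie above 0 and Wnt7b and Wnt8b below 0 in all 4 groups, and in DKO_CD no point is filled.

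The ligands other than these 4 did not pass the test between tissues in any mutant group taken alone. Wnt5b was higher in the Fb without overlap in each of them, with means of 11.9 and 8.29 FPKM in TKO_Ex, 12.9 and 7.17 in DKO_Ex and 13.1 and 7.33 in DKO_CD (Fb and Mb), and adjusted p between 0.117 and 0.458. Counted over the 10 ligands, the ranges did not overlap for 5 in TKO_Ex, 7 in DKO_Ex and 6 in DKO_CD, of which 3 in each group were Wnt5b, Wnt7b and Wnt8b, higher in the Fb. Of all genes, 4.67% lay apart as higher in the Mb and 4.27% as higher in the Fb in TKO_Ex, 12.6% and 7.86% in DKO_Ex, and 7.34% and 8.21% in DKO_CD. The summed level of the 10 was 65.1 to 91.2 FPKM in the TKO_Ex Fb and 51.7 to 63.8 in the TKO_Ex Mb. These ranges did not overlap, but the gap was narrow and rested on 4 libraries per tissue. They overlapped in WT, with 6 libraries per tissue, and in both DKO groups. The summed level was not tested.

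Next, each mutant group was compared with WT within a tissue. These comparisons share their WT libraries. None of the ligands passed the threshold in the Mb or in the Fb of any mutant group (limma). Of all genes, 0.0898% (TKO_Ex), 0.0903% (DKO_Ex) and 0.0375% (DKO_CD) passed in the Mb and 0.0603%, 0.0759% and 0.0378% in the Fb. At an unadjusted p under 0.05 there were 1 of 9 ligands in TKO_Ex (8.38% of all genes) and 1 of 10 in DKO_CD (6.69%) in the Mb, and 2 of 9 in TKO_Ex in the Fb (8.66%). In the other 3 comparisons no ligand and between 5.46% and 8.44% of all genes were under it. No ligand passed in any of the 893 values computed under other settings, in which the lowest adjusted p was 0.227. Wnt3 was too low to be tested in the Fb, as was Wnt8b in the Mb of TKO_Ex against WT.

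For Wnt1, the WT Mb had 13.7 to 25.1 FPKM (median 17.6), the TKO_Ex Mb 14.9 to 21.8, the DKO_Ex Mb 16.9 to 19.4 and the DKO_CD Mb 12.6 to 21.7. All mutant values but 1 of DKO_CD lay within the WT range. The log2 difference between TKO_Ex and WT was 0.0038 with a 95% interval of -0.37 to 0.37. In the Fb, Wnt1 was at 1.92 to 4.42 FPKM in TKO_Ex and at 0.203 to 2.30 in WT, with an overlap and a log2 difference of 0.95 ± 0.30 (SE, limma, unadjusted p = 0.00825, adjusted p = 0.387). Its highest values were in libraries 3 and 4, and without either one the difference was 0.83 or 0.89. Wnt4 in the same tissue had 1.93, 2.76, 3.43 and 2.75 FPKM in TKO_Ex against 1.08 to 1.91 in WT (median 1.62). Every TKO_Ex library lay above every WT library, but the gap was narrow (1.93 against 1.91 FPKM), where 1 FPKM rests on about 11.05 fragments. The share of all genes whose mutant and WT ranges lay apart was not computed. The log2 difference of Wnt4 was 0.52 ± 0.17 (SE, limma, unadjusted p = 0.0117, adjusted p = 0.417). Without library 3, its highest, it was 0.43. In the same libraries the 8 surface ectoderm genes summed to 96.1 to 241 FPKM, against 64.8 to 109 in the WT Fb, and 7 mesenchyme genes to 112 to 183, against 182 to 214. Both pairs of ranges overlapped, and of these genes 0 passed against WT (limma, 4 of 8 and 3 of 7 at an unadjusted p under 0.05). The part of these cell types in the ligand values was not tested.

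In the Mb, Wnt2b had 2.10, 2.05, 2.08 and 1.46 FPKM in TKO_Ex, all below the lowest WT library (2.22 to 8.25, median 3.30). This gap was narrow too, as 1 FPKM of Wnt2b rests on about 11.07 fragments. The log2 difference was -0.68 ± 0.27 (SE, limma, unadjusted p = 0.0273, adjusted p = 0.541). Without WT library 5, which had the highest Wnt2b, it was -0.49 (adjusted p = 0.644). Wnt5a had 12.8, 7.93 and 10.9 FPKM in DKO_CD against 10.3 to 21 in WT (median 16.7), with an overlap, a log2 difference of -0.56 ± 0.22 (SE) and an adjusted p of 0.700 (limma, unadjusted p = 0.0289). The mean of Wnt5a in the DKO_Ex Mb, 17.9 ± 9.26 FPKM (SD, n = 3), rested on library 2, which had 28.5 against 12.1 and 12.9 in the other 2.

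**Figure D4:**
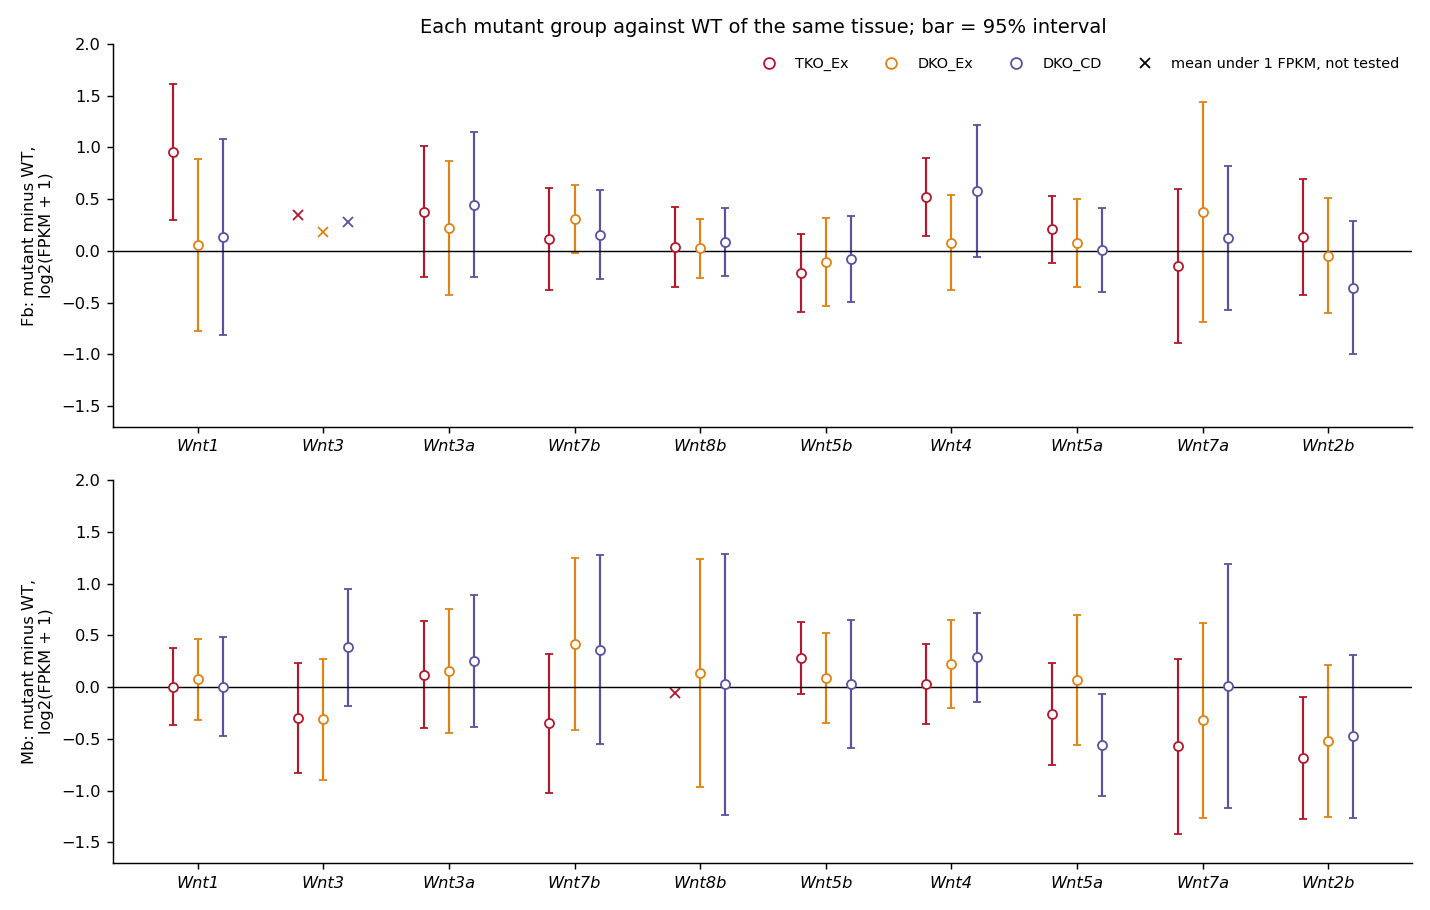
Mutant minus WT difference on the log2(FPKM + 1) scale with its 95% confidence interval (limma) for each ligand in the Fb (upper panel) and in the Mb (lower panel) of TKO_Ex, DKO_Ex and DKO_CD. None of the points has an adjusted p under 0.05, and crosses without an interval are ligands with a mean under 1 FPKM, which were not tested.

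Whether the Mb-to-Fb difference itself changed was tested as an interaction. None of the 10 ligands passed in TKO_Ex, DKO_Ex or DKO_CD (limma), where 0.0149%, 0% and 0.00746% of all genes passed. At an unadjusted p under 0.05 there were 4 of 10 ligands in TKO_Ex and none in the DKO groups, against 6.5%, 3.88% (DKO_Ex) and 4.83% (DKO_CD) of all genes. The 4 were Wnt1, Wnt2b (-0.82, limma, unadjusted p = 0.0416), Wnt4 (-0.49, 0.047) and Wnt5b (0.50, 0.046), which is higher in the Fb. Their adjusted p was at least 0.734 (limma). In TKO_Ex the Mb-to-Fb difference was smaller than in WT for Wnt1 by 0.95 ± 0.34 on the log2 scale (SE, limma, unadjusted p = 0.0123, adjusted p = 0.734), where the difference was 2.14 against 3.09 in WT. Against WT, Wnt1 in TKO_Ex was higher by 0.95 in the Fb and by 0.0038 in the Mb on the same scale. The 95% interval of the interaction ran from -1.67 to -0.23. The interaction was -1.01 without WT Mb library 5, -0.93 without library 3 of TKO_Ex in both tissues and -0.88 without TKO_Ex Fb library 4. In the DKO groups the tissue difference of Wnt1 was 3.11 and 2.97.

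To place the ligands in their pathway, genes of Wnt secretion, reception and response were examined in the same WT fit. Wls, the carrier that takes Wnt proteins to the cell surface, had 30.4 to 34.6 FPKM in the Fb and 55.2 to 108 in the Mb, without overlap (log2 difference 1.27, limma, adjusted p = 2.51e-05). It was 1 of 3 genes higher in the Mb among 6 tested on secretion and processing of the ligands, and the others were the inhibitors of Wnt activity Notum (1.26) and Trabd2b (1.03). Of 9 Wnt genes outside the 10, only Wnt9a and Wnt6 reached a mean of 1 FPKM. Wnt9a rose from 1.15 ± 0.591 FPKM in the Fb to 3.59 ± 1.44 in the Mb (SD, n = 6 each, limma, adjusted p = 0.0158), and Wnt6 was at 4.73 ± 2.10 and 5.76 ± 1.16.

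Among 16 receptors and co-receptors, 2 passed as higher in the Mb and 6 as higher in the Fb, with a median log2 difference of -0.13 against -0.003 over all genes. Fzd10 had 4.13 to 6.95 FPKM in the Fb and 40.2 to 60.9 in the Mb (log2 difference 3.01, limma, adjusted p = 6.97e-09), and Fzd9 was the other one higher in the Mb (0.92). In the Fb the higher Frizzled genes were Fzd5 (7.60 ± 1.04 FPKM against 0.655 ± 0.237 in the Mb, SD, n = 6 each), Fzd8 (17.9 ± 1.89 against 4.84 ± 0.678), Fzd4, Fzd2 and Fzd1, and the co-receptor Lrp5 was the sixth. Fzd5, with a mean under 1 FPKM in the Mb of every group, entered the tests between tissues through its Fb level. Receptors thus differed between the tissues gene by gene, as the ligands did. In the mutants, Fzd5 and Fzd8 passed as higher in the Fb in all 3 groups, and Fzd10 passed as higher in the Mb in TKO_Ex (1.84) and in DKO_Ex (3.0).

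Feedback targets of β-catenin signalling were higher in the Mb. Of 15 tested in WT, 9 passed as higher in the Mb and none as higher in the Fb (limma), where 1 had an unadjusted p under 0.05, with a median log2 difference of 0.62. Apcdd1, an inhibitor of the pathway that is itself induced by it, had 14.8 to 22.3 FPKM in the Fb and 71.5 to 105 in the Mb (2.16, limma, adjusted p = 6.49e-08). Sp5, Nkd1 and Axin2, a component of the β-catenin destruction complex, had log2 differences of 1.71, 1.56 and 1.07 (limma, adjusted p = 2.71e-05, 7.25e-05 and 0.000159). Among 10 extracellular inhibitors tested, Apcdd1, Draxin (1.71) and Frzb (0.94) were higher in the Mb. Draxin, with a mean of 0.869 FPKM in the Fb, entered the test through its Mb level. Of 6 tested genes of the R-spondin group, Rspo3 (-1.37) and Rspo2 (-1.13), whose proteins amplify Wnt signals, were higher in the Fb, and Znrf3 (0.49), a ubiquitin ligase that removes Frizzled receptors, in the Mb. Of 16 feedback targets tested in each mutant group, 6 were higher in the Mb in TKO_Ex, 4 in DKO_Ex and 1, Nkd1, in DKO_CD. Of all genes, 1.54%, 1.66% and 0.224% were higher in the Mb in these groups, and 4.66% in WT. The median log2 difference of the feedback targets was 0.55, 0.68 and 0.58 in the mutant groups. No gene of these pathway lists passed when a mutant group was compared with WT (limma). In the Mb, 6 of 49 (TKO_Ex), 5 of 50 (DKO_Ex) and 4 of 49 (DKO_CD) had an unadjusted p under 0.05. Of all genes, 8.38%, 5.46% and 6.69% did. In the Fb these were 8, 5 and 4 of 49, against 8.66%, 7.01% and 8.44% of all genes.

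Genes of other cell types also differed between the WT tissues. All 6 surface ectoderm genes tested and 6 of 7 mesenchyme genes were higher in the Fb, and the lists summed to 64.8 to 109 and 182 to 214 FPKM there against 26.8 to 41.8 and 59.0 to 103 in the Mb. Of the 6 roof plate genes, 4 were higher in the Mb, among them Gdf7 (1.72), Msx1 (1.03) and Msx2 (0.71), as were all 5 neuron genes tested. Of the 6 endothelial genes 0 passed and 0 had an unadjusted p under 0.05 (limma, lowest adjusted p 0.261). No gene found in the data from the ectoderm, mesenchyme or neuron lists was at 0 in all 32 libraries. The part of these cell types in the ligands' differences was not tested.

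Some Mb libraries carried more of the ligands that are high in the Fb. Library 5 of the WT Mb had 7.05 FPKM of Wnt7b and 4.57 of Wnt8b, against at most 3.5 and 0.769 in the other 5, and library 1 of the DKO_CD Mb had 7.06 and 3.22, against at most 3.69 and 0.493 in its group. Library 2 of the DKO_Ex Mb had 6.2 and 2.27. All 3 had more Pax6 than the other libraries of their group (52.7, 40.0 and 30.7 FPKM). Wnt1 was at 14.03, 19.9 and 19.4 FPKM in these libraries and En1 at 3.57, 25.4 and 57.7, so that only in the WT library of the 3 was En1 below the rest of its group. Library 3 of the WT Mb had 45.9 FPKM of Pax6 but 1.67 of Wnt7b, so the pair did not always go together.

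**Figure D5:**
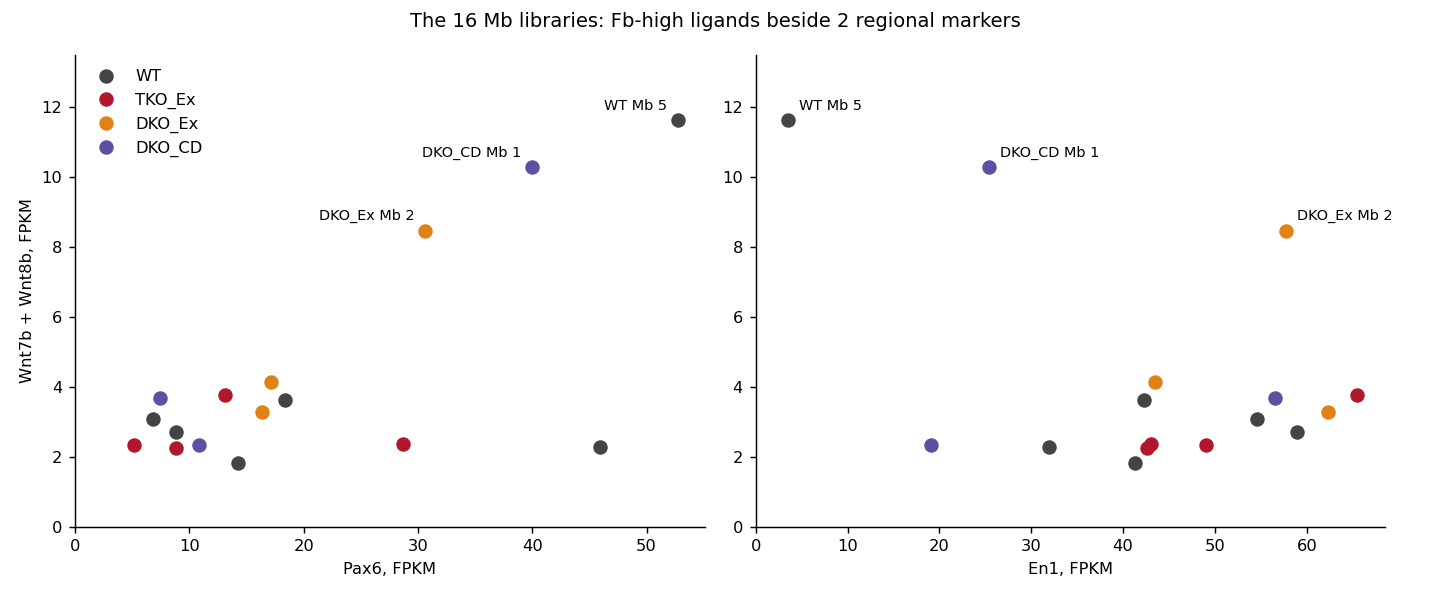
Summed FPKM of Wnt7b and Wnt8b in each of the 16 Mb libraries against the FPKM of Pax6 (left) and of En1 (right), with 1 point per library coloured by group. Library 5 of WT, library 1 of DKO_CD and library 2 of DKO_Ex lie above all others, and library 3 of WT has 45.9 FPKM of Pax6 but lies among the low libraries.

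The genes with the most similar pattern to each ligand over all 32 libraries were listed by Pearson's r of log2(FPKM + 1), as a description, since the libraries share their tissues. Wnt7b and Wnt8b were among the 3 nearest genes of each other (r = 0.971). Next to Wnt7b stood Dmrta2 (0.972) and Emx2 (0.971), and next to Wnt8b Six3 (0.969) and Dmrt3 (0.966), all transcription factor genes of the forebrain. Wnt1 was closest to Hes3 (0.968), Fzd10 (0.964) and Irx1 (0.959), and Wnt3a to Pou3f2 (0.938), Fzd10 (0.930) and Jam2 (0.925). Wnt3 was closest to Unc5c (0.921), Pax3 (0.918) and Msx1 (0.917), Wnt5b to Irs4 (0.876), and Wnt5a to Lrtm1 (0.836). The nearest genes of Wnt4 (Acta2, 0.787), Wnt2b (Sertad2, 0.773) and Wnt7a (Atcay, 0.759) were less alike.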

How the data were processed

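Fb and Mb RNA of E9.5 embryos was measured in 32 libraries. Directional reads were aligned to GRCm38 (mm10) by the authors with TopHat2, and FPKM per gene, computed by the authors with Cufflinks, were deposited. These are already scaled to gene length and to the mapped fragments of each library. Read counts from HTSeq, which the authors tested with DESeq2, were not used here. Versions are not given in the sources used here. The 12 DKO columns whose heading and record disagree were grouped by heading. Repeated identifiers (65) were summed, and 48218 of 48576 identifiers were found in GENCODE M21.

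Library depth came from the spacing of low FPKM in 771 genes with 1 transcript of at least 4000 bp, where 86.4% to 93.8% of low values per library lay within 0.1 of a whole fragment.

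With limma 3.58.1 (R 4.3.3), log2(FPKM + 1) was fitted with a trend of variance on mean for genes whose mean reached 1 FPKM in the libraries of that fit. The p-values are two-sided and Benjamini-Hochberg adjusted over all genes tested, with a threshold of 0.05. Each genotype was fitted alone between tissues, each mutant group with WT within a tissue, and the change of the tissue difference as an interaction. Scripts were tested on simulated data. Further tools were data.table (1.17.8), Python 3.11.15, pandas 2.3.3, NumPy 2.4.6 and matplotlib 3.10.9. Motifs were searched in the 250 bases upstream of RefSeq start sites. The alternatives were a pseudocount of 0.1, no filter, no trend, median-of-ratios scaling, a replicate block, all 8 groups in one fit, DKO groups by record and leaving out each library. Leaving out library 3 of TKO_Ex in both tissues was added after the data were seen.

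The ligands and gene lists were chosen with earlier results of these data known. Genes named are the 10 ligands, members of the pathway lists and the 3 genes most like each ligand. The libraries that stand apart, and the regional genes that show it, were chosen after their values were seen. Another regional gene is not reported here.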

Additional observations from a re-analysis of the deposited data

Results flagged for a closer look

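Groups of 4 or more libraries were examined for a value far from the others, 40 groups of a ligand in a tissue and genotype and 4 of the summed level of the 10 ligands. In 9 the extreme value stood apart by Dixon's criterion, which chance alone meets in about 5% of groups. In the WT Mb, library 5 was high for Wnt3 (4.68 FPKM, others 1.5 to 2.49), Wnt7b (7.05, others 1.47 to 3.5), Wnt8b (4.57, others 0.113 to 0.769) and Wnt2b (8.25, others 2.22 to 4.25). This is the library with 3.57 FPKM of En1 and 52.7 of Pax6, and the part of this in the ligand values was not tested. Library 3 of the WT Mb was high for Wnt7a (12.9 FPKM, others 2.05 to 5.55), and library 3 of the WT Fb for Wnt5a (12.2 FPKM, others 7.16 to 8.80).

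In the TKO_Ex Mb, library 3, in which Cdh6 was at the WT level, was high for Wnt7b (2.51 FPKM, others 1.70 to 1.75) and for Wnt8b (1.25 FPKM, others 0.537 to 0.654). Library 4 of the same group was low for Wnt2b (1.46 FPKM, others 2.05 to 2.10).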

How the results depend on the processing

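Of 2251 ligand values recomputed under other settings, 2073 kept their direction and their side of the threshold, 14 lost and 16 gained it, and none that passed changed direction. The other 148 did not pass and changed sign. Where DKO groups were taken by record, the values are those of the other DKO group under an exchanged name. The WT counts of 5 and 3 ligands stayed within 1.5 times under every setting run. The cause of the changes below was not tested. Fits that leave out a library have fewer samples.

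Between tissues, the counts of ligands are given as higher in the Mb and in the Fb (2 and 2 in TKO_Ex, 2 and 2 in DKO_Ex, 0 and 0 in DKO_CD), and likewise of all genes (207 and 182, 221 and 123, 30 and 38). With all 8 groups in one fit the genes were 370 and 325 in TKO_Ex, 372 and 190 in DKO_Ex and 215 and 171 in DKO_CD, where the ligands were 3 and 2. With DKO groups by record only the names are exchanged. Ligands were then 0 and 0 and genes 30 and 38 in DKO_Ex, and 2 and 2 and 221 and 123 in DKO_CD. Without the filter, 1 ligand was higher in the Mb in DKO_Ex, and 14 genes in DKO_CD. Without library 3 of TKO_Ex in both tissues, chosen after seeing the data, 1 ligand was higher in the Mb, with 81 and 82 genes, and 0 genes passed the interaction. Leaving out each library gave 1 to 2 ligands and 130 to 186 genes higher in the Mb in TKO_Ex. In DKO_Ex it gave 1 to 2 ligands and 96 to 157 genes higher in the Mb, and 67 to 92 genes higher in the Fb. In DKO_CD it gave 0 to 1 ligands and 7 to 32 genes higher in the Mb, and 0 to 2 ligands and 19 to 45 genes higher in the Fb.

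Fb and Mb libraries of the same genotype and number may come from 1 embryo. In their deviations from the group means 14 of 16 Fb libraries correlated best with the Mb library of their own number. This is a hint from the data, and the main tests did not use the pairing. The r of these pairs was low (0.008 to 0.14) and over 0.1 in 4 pairs only. Libraries of mutants and WT share only a number, and 0 of 10 in either tissue correlated best with their own. With the replicate block, 1 ligand was higher in the Mb in TKO_Ex (118 genes in the Fb) and in DKO_Ex (144 genes in the Mb), since Wnt3a no longer passed (adjusted p = 0.0546 and 0.0598, limma). In DKO_CD 1 ligand, Wnt7b (0.0266), was higher in the Fb and 14 genes in the Mb, and in WT Wnt4 no longer passed (0.0812). Against WT the block gave 0 genes in TKO_Ex in either tissue and in its interaction, 1 in the Mb and 2 in the Fb of DKO_Ex, 1 in the Mb of DKO_CD and 1 in the interaction of DKO_Ex.

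Against WT no ligand passed under any setting, so only the counts of all genes moved. In the Mb of TKO_Ex (12 genes) they were 6 without the filter, 3 without the trend, 38 with all groups and 4 to 52 with each library left out (52 without WT library 1). In the Mb of DKO_Ex (12) they were 5 by record and 3 to 14 with a library left out, and in the Mb of DKO_CD (5) 10 with all groups, 12 by record and 3 to 10. In the Fb of TKO_Ex (8) they were 5 without the filter, 32 with all groups and 0 to 8, in the Fb of DKO_Ex (10) 5 by record and 6 to 14, and in the Fb of DKO_CD (5) 15 without the filter, 9 with median-of-ratios scaling, 12 with all groups, 10 by record and 2 to 10. The interaction called 1 gene with a pseudocount of 0.1, 4 without the trend, 0 with all groups and 1 to 5 with a library left out in TKO_Ex (2), 1 by record and 0 to 1 in DKO_Ex (0), and 5 without the filter, 0 with all groups and 0 by record in DKO_CD (1).

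At 1.96 to 3.25 M fragments, 1 FPKM of Wnt3 rests on about 8.1 fragments and of Wnt8b on about 9.17, so values of Wnt3 in the Fb and of Wnt8b in the Mb are coarse. Mb depth was 1.96 to 2.34 M in TKO_Ex and 2.39 to 2.95 M in WT.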
